A study of Mus musculus with 2 samples.

Results

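Long noncoding RNAs were followed in fibroblasts cultured from mouse embryos (MEFs), a standard primary connective tissue culture, with and without Malat1. The 10 genes were Malat1, Neat1 and Miat, whose RNAs stay in the nucleus, the snoRNA host genes Gas5, Snhg1, Snhg3, Snhg12 and Dancr, and Tug1 and Pvt1. Every probe set that the Mouse430_2 annotation paired with exactly 1 symbol for these genes was taken, which gave 31 of the 34945 non-control probe sets with 1 symbol. The cells came from Malat1 knock-out embryos and from wildtype embryos, all C57BL/6 at embryonic day 13.5, and were kept untreated in culture for 2 weeks. Each genotype had 1 Affymetrix array, and the labels do not say how many embryos or cultures went into it, nor which part of Malat1 was altered. Neither group therefore has a replicate, no difference below has a p-value or an error between cultures, and precision is limited by the number of arrays.

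Malat1 is an abundant RNA held at nuclear speckles, which are stores of splicing factors, and its 3′ end is cut by RNase P, which releases a small RNA called mascRNA. Neat1 is the RNA around which paraspeckles form, and its short and long isoforms share a start. Host genes such as Gas5 and Snhg1 carry small nucleolar RNAs (snoRNAs, guides for the chemical modification of ribosomal RNA) in their introns. Their spliced RNAs often open with a run of pyrimidines, as ribosomal protein mRNAs do, and are degraded during translation by nonsense-mediated decay, so that their level depends on the state of translation.

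The annotated starts of these genes are shown because that opening run is a known feature of snoRNA host RNAs. RefSeq promoters were given for 8 of the 10 genes, on GRCm38.p6, with a pair of starts for Gas5. Malat1 lies on the minus strand, and its window chr19:5802623-5802922 reads as follows, with the 50 bases from the annotated start in capitals.
Malat1: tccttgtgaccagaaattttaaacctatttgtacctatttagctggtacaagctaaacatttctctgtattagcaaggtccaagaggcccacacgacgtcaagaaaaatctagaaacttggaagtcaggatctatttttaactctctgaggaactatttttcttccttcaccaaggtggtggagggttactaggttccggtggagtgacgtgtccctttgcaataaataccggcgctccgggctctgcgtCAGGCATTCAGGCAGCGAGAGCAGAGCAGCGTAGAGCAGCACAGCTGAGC

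For the other genes the 10 bases before and the 20 bases from the annotated start are given 5′ to 3′ on the transcribed strand. Capitals mark any of 3 searched pyrimidine runs, which were spelled CTTTTC in the first search, CCTTTC in the second and TCTTTC in the third.
Gas5, chr1:161035156-161035185, plus strand: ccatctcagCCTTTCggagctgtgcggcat
Gas5, chr1:161034591-161034620, plus strand: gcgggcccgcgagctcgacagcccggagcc
Snhg1, chr19:8723477-8723506, plus strand: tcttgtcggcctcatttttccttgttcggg
Snhg3, chr4:132353667-132353696, minus strand: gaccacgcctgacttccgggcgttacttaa
Snhg12, chr4:132308668-132308697, plus strand: ttctcagtCCTTTCtcgcttcatccgcggt
Dancr, chr5:74093050-74093079, plus strand: ctcggggggggggggcagctccgcccctct
Tug1, chr11:3648795-3648824, minus strand: cttggggcgcaggcccggccgccgcggcgc
Miat, chr5:112228929-112228958, minus strand: tcgcagtagcccctttgtgaggcgcgggag

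CCTTTC was present at the downstream Gas5 start and at Snhg12, against 1.17% of 32851 RefSeq promoters in the same window, and any of the 3 runs was present in 3.09%. The other 7 windows, Malat1 included, held none of the 3 searched runs. Pyrimidine-rich stretches of other spelling, such as that in the Snhg1 window above, were not searched for. Over the whole 300 bases the E-box CACGTG, searched on both strands, was in none of the 9 promoters and in 7.15% of all promoters. TATAAA on the transcribed strand was in the Snhg3 promoter alone, beginning 22 bases past the first transcribed base, and in 8.32% of all promoters.

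Signals are given as the deposited values, taken as log2. The floor for calling a probe set measured was the median signal of the 45037 non-control probe sets, 5.44 on the knock-out array and 5.39 on the wildtype array. Differences are knock-out minus wildtype after raising lower signals to the floor, so that a probe set measured on 1 array alone gives a bound, written as at least that fold. Of the 31 probe sets, 21 were measured on both arrays, 8 on 1 array and 2 on neither. Among all 20484 probe sets with 1 symbol measured on at least 1 array, the median difference was -0.06 and 60.4% were lower on the knock-out array. Where a gene had several probe sets, their spread served as the nearest available measure of error, and the differences of probe sets of the same gene had a pooled SD of 0.199 over all genes. Ranks within an array count from the highest signal among the 45037 non-control probe sets and mix RNA abundance with probe brightness. The brightest probe set of a gene is the one with the highest mean of both arrays.

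**Figure D1:**
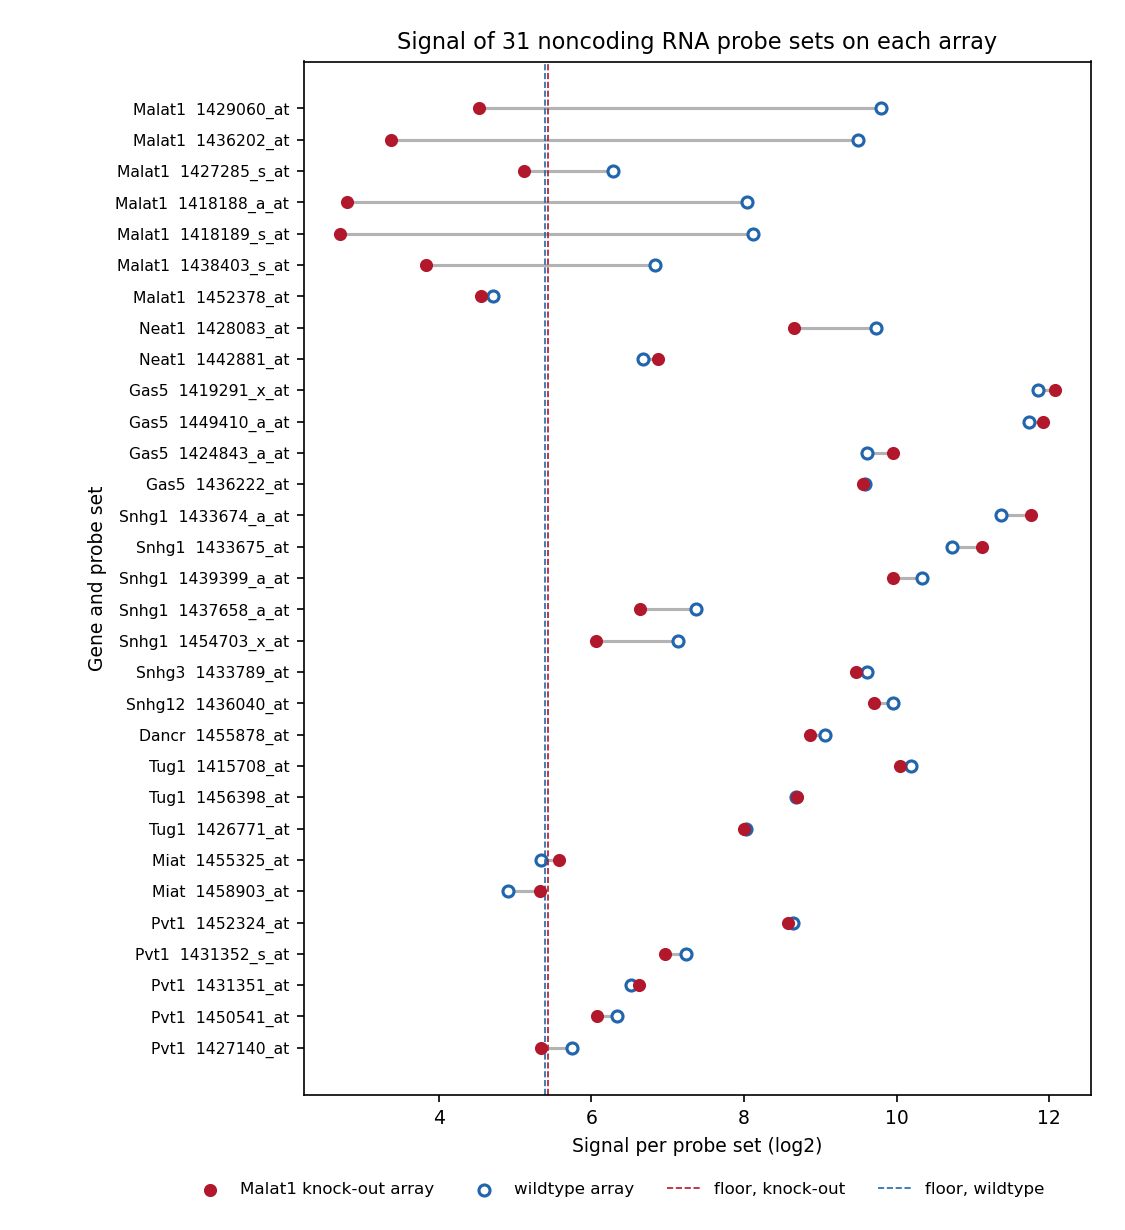
Signal (log2) of each of the 31 probe sets, by gene and from bright to dim within a gene, on the Malat1 knock-out array (filled red) and the wildtype array (open blue), with dashed lines at the floors of 5.44 and 5.39. All Malat1 points of the knock-out array lie below the floor, most of them far from their wildtype points. The pair of 1452378_at nearly overlaps below both floors. Most pairs of the other genes nearly overlap.

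The arrays set the 10 genes apart in kind. Malat1 signal was below the floor on the knock-out array, Neat1 was lower there at its brighter probe set, Snhg1 differed in both directions, and no probe set of the other 7 genes was called at 1.5-fold, though 1 each of Miat and Pvt1, measured on 1 array alone, gave only a lower bound. Of the 29 measured probe sets, 7 were at least 2-fold lower on the knock-out array, against 0.322% of all measured probe sets, and 0 were at least 2-fold higher, against 0.0732%. At 1.5-fold the counts were 9 lower, against 2.32%, and 0 higher, against 0.703%. Malat1 itself supplied 5 of the 7 and 6 of the 9. Its 6 counted probe sets were measured on the wildtype array alone, so they entered the 29 through the array where Malat1 was high. Without Malat1, 2 of 23 probe sets were at least 2-fold lower and 3 at least 1.5-fold lower. Of the 23, 14 (60.9%, beside 60.4% of all measured) were lower and 9 higher. Their median was -0.06, which is also the median of all measured probe sets.

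Facts of the arrays that touch all of these values come first. Summed linear signals take the brightest probe set of every marker gene listed, those below the floor included. All 10 fibroblast markers (Col1a1, Col1a2, Col3a1, Thy1, Pdgfra, Pdgfrb, Vim, Fn1, Dcn and S100a4) were measured on both arrays, with summed linear signals of 84272 on the knock-out array and 96514 on the wildtype array. Of their 19 probe sets 17 (89.5%, beside 60.4% of all measured) were lower on the knock-out array. Their median was -0.34, beside -0.06 for all measured probe sets. At the brightest probe sets Col1a1 was 1.93-fold and Pdgfra 1.66-fold lower on the knock-out array, while Dcn was 1.67-fold higher. Endothelial marker sums were 648 on the knock-out array and 296 on the wildtype array, with 2 of 5 genes measured. Emcn was 2.77-fold higher on the knock-out array, and Tie1, Pecam1 and Cdh5 stayed below the floor. Epithelial markers were measured for 4 of 6 genes (713 on the knock-out array, 508 on the wildtype array), of which Cldn4 was 2.18-fold higher on the knock-out array, with Cdh1 and Krt14 below the floor. Macrophage markers were measured for 6 of 7 genes (1169 on the knock-out array, 1191 on the wildtype array), with Itgam below the floor. Skeletal muscle markers were measured for 2 of 5 (415 on the knock-out array, 328 on the wildtype array). Myod1, Myog and Myh3 were below the floor. Neural markers were measured for 5 of 5 (719 on the knock-out array, 844 on the wildtype array). The part of these cells in the differences below was not tested, and in bulk RNA fewer cells of a type and less RNA per cell cannot be told apart. Xist was measured on the knock-out array alone and the Y-linked genes Kdm5d, Eif2s3y and Uty on the wildtype array alone, so embryo sex and Malat1 genotype cannot be told apart. RefSeq places none of the 10 genes on a sex chromosome.

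**Figure D2:**
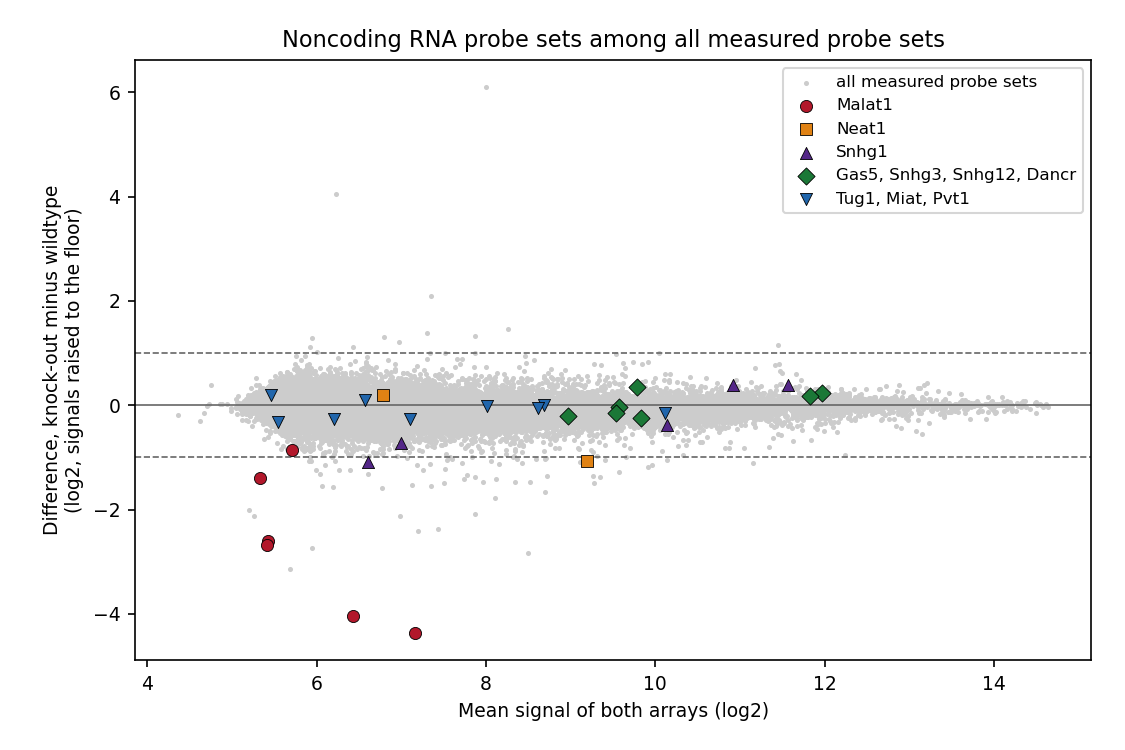
Difference, knock-out minus wildtype (log2, signals raised to the floor), against the mean signal of both arrays (log2) for 20484 measured probe sets (grey) and the 29 measured probe sets of the 10 genes (coloured by gene), with dashed lines at 2-fold. The lowest point of the plot is a Malat1 probe set at -4.36, and the points of Gas5, Snhg3, Snhg12, Dancr, Tug1, Miat and Pvt1 lie close to 0.

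Malat1, the gene altered in the knock-out, had 7 probe sets, and 6 were measured on the wildtype array and none on the knock-out array. The brightest of these, 1429060_at, read 4.53 on the knock-out array and 9.80 on the wildtype array. Its rank was 29163 on the knock-out array and 4103 on the wildtype array. The probe set 1436202_at read 3.38 (rank 38594) on the knock-out array and 9.49 (rank 4932) on the wildtype array. The pair 1418189_s_at and 1418188_a_at, listed under a shared accession, read 2.70 and 2.80 on the knock-out array, where 3.24% and 4.49% of probe sets were dimmer. On the wildtype array they read 8.12 and 8.03. These are at least 6.42-fold and 6.05-fold lower on the knock-out array. Because every Malat1 signal of the knock-out array lay under the floor, the order of these probe sets by difference follows their wildtype brightness, and 1429060_at comes out lowest of all 20484. With no floor 1436202_at was lowest, at -6.11, and 3 probe sets lay below 1429060_at, which then differed by -5.27.

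The Malat1 probe sets that were dimmer on the wildtype array differed less. The probe set 1438403_s_at read 3.84 on the knock-out array and 6.83 on the wildtype array, at least 2.63-fold lower. The probe set 1427285_s_at read 5.12 on the knock-out array, just under the floor, and 6.29 on the wildtype array, at least 1.80-fold lower. Probe sets ending in _s_at can share probes with transcripts of other genes. The last, 1452378_at, read 4.55 on the knock-out array and 4.71 on the wildtype array, below the floor of both, although the annotation lists it under the same accession as 1427285_s_at. The knock-out signals of the 7 probe sets ran from 2.70 to 5.12 and the wildtype signals from 4.71 to 9.80, so that the ranges overlap only through this last probe set and the floor sets how large each loss can be stated.

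Neat1, which RefSeq places on chromosome 19 as it does Malat1, was lower at its brighter probe set alone. In the order of start coordinates only Mascrna falls between them, and mascRNA is cut from the 3′ end of Malat1 itself. The probe set 1428083_at read 8.65 on the knock-out array and 9.73 on the wildtype array, a difference of -1.08, and its rank was 7325 on the knock-out array and 4279 on the wildtype array. Only 53 of the 20484 measured probe sets had a lower difference. The dimmer 1442881_at read 6.88 on the knock-out array and 6.68 on the wildtype array, a difference of 0.19, and 2616 probe sets had a higher one. The probe sets of Neat1 thus disagree in sign by 1.27 log2 units, and the sources used here do not say which isoform each detects. The difference of the brighter one was -1.02 to -0.99 under 3 other scalings of the arrays, on either side of the 2-fold mark.

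Miat, also called Gomafu, a nuclear RNA known from neurons, was close to the floor. Its brighter probe set, 1455325_at, read 5.58 on the knock-out array and 5.34 on the wildtype array, and was measured on the knock-out array alone, at least 1.14-fold higher. The probe set 1458903_at read 5.32 on the knock-out array and 4.91 on the wildtype array, under both floors. At this brightness the arrays gave no more than a bound for Miat.

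Among the snoRNA hosts, Snhg1 probe sets went both ways. The brightest, 1433674_a_at, read 11.76 on the knock-out array and 11.37 on the wildtype array, and 1433675_at, listed under the same accession, read 11.11 on the knock-out array and 10.72 on the wildtype array. These were 0.38 and 0.39 higher, or 1.30-fold and 1.31-fold. The remaining 3 probe sets were lower. The probe set 1439399_a_at read 9.95 on the knock-out array and 10.33 on the wildtype array, a difference of -0.39. The probe set 1437658_a_at read 6.63 on the knock-out array and 7.37 on the wildtype array, 1.66-fold lower, and 1454703_x_at read 6.06 on the knock-out array and 7.14 on the wildtype array, 2.11-fold lower. Only 51 of the 20484 measured probe sets had a lower difference than 1454703_x_at, while 730 had a higher one than 1433675_at.

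The SD of the Snhg1 differences was 0.662 over 5 probe sets, with a range of 1.48 log2 units. Of the 234 genes with at least 5 probe sets measured on both arrays, no other gene had a larger SD, and the median SD was 0.157. This ranking was made after the Snhg1 values were seen. Probe sets at least 1.25-fold higher and others at least 1.25-fold lower were found together in 12 of these genes, or 5.13%. An ending of _a_at marks probe sets that can detect several transcripts of a gene, and _x_at marks probe sets with probes similar to other sequences. The signs of all 5 Snhg1 differences held under each of the 3 other scalings.

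**Figure D3:**
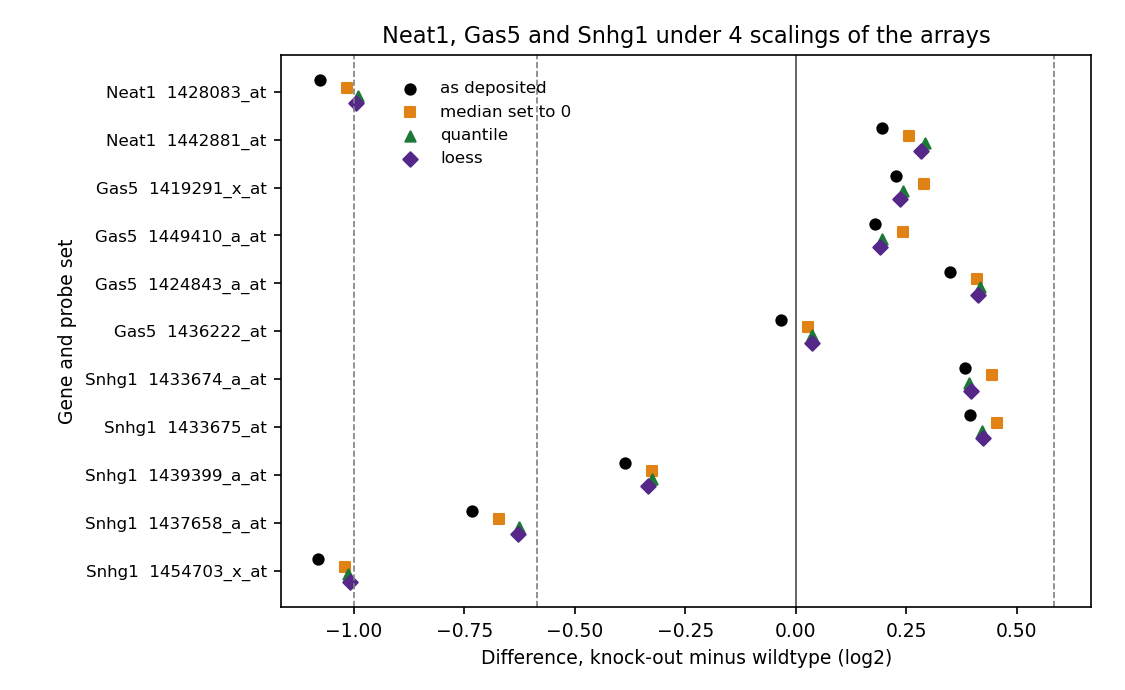
Difference, knock-out minus wildtype (log2), of the probe sets of Neat1, Gas5 and Snhg1 with the values as deposited (circles), with the median difference set to 0 (squares), after quantile normalization (triangles) and after loess centring (diamonds), with dashed lines at 2-fold lower and at 1.5-fold in both directions. Neat1 and Snhg1 have probe sets on both sides of 0 under all 4 scalings, and the Gas5 points lie between -0.03 and 0.42.

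Gas5, named for its build-up in growth-arrested cells, was slightly higher on the knock-out array at 3 of its 4 probe sets. The brightest, 1419291_x_at, read 12.08 (rank 807) on the knock-out array and 11.85 (rank 980) on the wildtype array. The probe set 1449410_a_at read 11.92 on the knock-out array and 11.74 on the wildtype array, and 1424843_a_at read 9.95 on the knock-out array and 9.61 on the wildtype array. These differences of 0.23, 0.18 and 0.35 became 0.19 to 0.42 under the other scalings. The fourth, 1436222_at, read 9.56 on the knock-out array and 9.59 on the wildtype array, a difference of -0.03 that turned positive under each other scaling. The Gas5 probe sets had an SD of 0.159, and the mean over all 4 was 0.18.

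The other hosts had 1 probe set each, all slightly lower on the knock-out array. Snhg12 read 9.71 on the knock-out array and 9.95 on the wildtype array, a difference of -0.24. Dancr, an RNA known for holding back differentiation of progenitor cells, read 8.86 on the knock-out array and 9.07 on the wildtype array, a difference of -0.21. Snhg3 read 9.46 on the knock-out array and 9.61 on the wildtype array, a difference of -0.14. Each is near or below the pooled spread between probe sets of a gene, and under the other scalings they lay between -0.18 and -0.07. Over the 12 probe sets of the 5 host genes 7 (58.3%, beside 60.4% of all measured) were lower and 5 higher. Their median was -0.09 beside -0.06 for all measured probe sets. Gas5 at its downstream start and Snhg12 share the printed CCTTTC run, while the signs of their brightest probe sets differ.

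Tug1, an RNA known from mouse retina development, and Pvt1, transcribed next to Myc, stayed within 1.5-fold at every probe set measured on both arrays. Tug1 read 10.04 on the knock-out array and 10.19 on the wildtype array at 1415708_at. It read 8.69 on the knock-out array and 8.68 on the wildtype array at 1456398_at, and 8.01 on the knock-out array and 8.02 on the wildtype array at 1426771_at. The 3 differences lay between -0.15 and 0.01, and their SD was 0.086.

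Pvt1 had 5 probe sets, with differences from -0.31 to 0.11. The brightest, 1452324_at, read 8.58 on the knock-out array and 8.64 on the wildtype array, and its difference of -0.06 turned to between 0.00074 and 0.05 under the other scalings. The probe set 1431352_s_at read 6.97 on the knock-out array and 7.24 on the wildtype array, and 1450541_at read 6.07 on the knock-out array and 6.33 on the wildtype array. In contrast 1431351_at read 6.62 on the knock-out array and 6.51 on the wildtype array. The dimmest, 1427140_at, read 5.33 on the knock-out array, below the floor, and 5.75 on the wildtype array, at least 1.24-fold lower. The Pvt1 differences had an SD of 0.180 over the 4 probe sets measured on both arrays.

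A wider list of 90 noncoding RNA names, besides these 10 genes, placed them among their kind. A probe set with 1 symbol existed for 55 of the names, and 33 genes with 64 probe sets were measured. Of the 64 probe sets 44 (68.8%, beside 60.4% of all measured) were lower and 20 higher on the knock-out array. The median was -0.18 beside -0.06 for all measured probe sets, and it was -0.12 to -0.10 under the other scalings. At 1.5-fold 6 were lower, against 2.32% of all measured probe sets, and 3 higher, against 0.703%. All 6 belong to Meg3, Rian and Mirg, maternally expressed RNAs of a single imprinted cluster on chromosome 12, for which 15 of 17 probe sets were lower, with a median of -0.50. The 3 higher ones were 2 Xist probe sets and 1 of Morrbid, named here after its values were seen, which read 6.88 on the knock-out array and 6.02 on the wildtype array, while the brighter Morrbid probe set differed by -0.11. Without Meg3, Rian and Mirg 29 of 47 probe sets were lower and the median was -0.11.

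By their brightest probe sets, 1 of the 33 genes was at least 1.5-fold lower and 1 at least 1.5-fold higher. Rian was lower, at 10.61 on the knock-out array and 11.71 on the wildtype array, and all 4 of its measured probe sets were lower. Xist, which silences an X chromosome in female cells, was higher, at 11.49 on the knock-out array and 4.50 on the wildtype array. Of the brightest RNAs of the list, Meg3 read 11.91 on the knock-out array and 12.25 on the wildtype array. Norad, a cytoplasmic RNA that binds Pumilio proteins, read 11.53 on the knock-out array and 11.73 on the wildtype array. Snhg6 read 11.52 on the knock-out array and 11.28 on the wildtype array, and Snhg8 read 11.06 on the knock-out array and 11.11 on the wildtype array. These probe sets differed by -0.33 for Meg3, -0.20 for Norad, 0.24 for Snhg6 and -0.05 for Snhg8. The Meg3 value is among the smaller ones of that gene, whose 11 probe sets had a median of -0.42, with 9 lower and 3 of them at least 1.5-fold lower, such as a bright one at 11.07 on the knock-out array and 11.70 on the wildtype array.

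The list also held further snoRNA hosts, the Snhg genes and Zfas1. Of their 15 measured probe sets, from 11 genes, 8 (53.3%) were lower and 7 higher on the knock-out array, between -0.28 and 0.24. Among all measured probe sets 60.4% were lower. At 1.5-fold 0 passed, beside 2.32% lower and 0.703% higher among all measured probe sets. Each of the 5 Snhg1 probe sets lay farther from 0 than any of these 15.

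**Figure D4:**
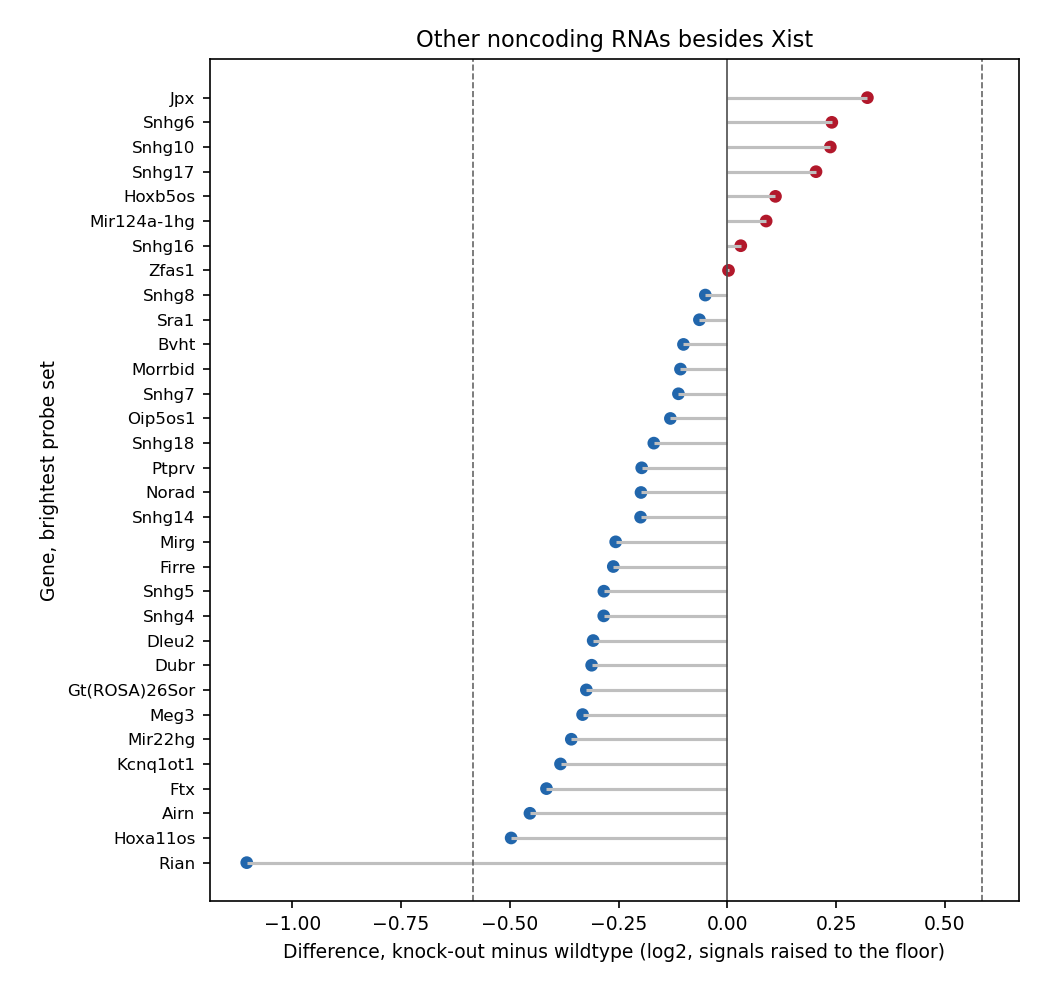
Difference, knock-out minus wildtype (log2, signals raised to the floor), at the brightest probe set of 32 other noncoding RNA genes, ordered from higher (red) to lower (blue) on the knock-out array, with dashed lines at 1.5-fold. Xist, at 6.10, is left out of the plot, and Rian at -1.10 is the only gene drawn beyond a dashed line.

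Genes related to these RNAs in processing or function were compared as lists. Protein-coding genes that carry snoRNAs in their introns, mostly for ribosomal and nucleolar proteins and translation factors, were measured for 23 of 34 names. Of their 53 probe sets 41 (77.4%, beside 60.4% of all measured) were lower and 11 higher. The median was -0.04, beside -0.06 for all measured probe sets, and became -0.05 to 0.02 under the other scalings. At 1.5-fold 0 passed, beside 2.32% lower and 0.703% higher among all measured probe sets. The largest differences at the brightest probe set were those of Hspa9, a mitochondrial chaperone (11.53 on the knock-out array, 11.82 on the wildtype array), Eef2, an elongation factor of translation (13.06 on the knock-out array, 13.22 on the wildtype array), and Sf3b3, a splicing factor (9.65 on the knock-out array, 9.79 on the wildtype array).

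Factors of nonsense-mediated decay, which removes spliced host RNAs, were measured for 9 of 14 names. Of their 12 probe sets 10 (83.3%, beside 60.4% of all measured) were lower and 2 higher. Their median was -0.15, beside -0.06 for all measured probe sets. At 1.5-fold 0 passed, beside 2.32% lower and 0.703% higher among all measured probe sets. Upf1, the helicase at the centre of this pathway, read 7.14 on the knock-out array and 7.73 on the wildtype array, a difference of -0.58 and a fold of 1.499, just inside the 1.5-fold mark. Smg5, which recruits the decay machinery, differed by -0.27, and Casc3, a component of the exon junction complex, by -0.25.

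Genes for RNase P and other tRNA-processing enzymes, and for the RNA methyltransferases Mettl3, Mettl14 and Mettl16, were measured for 13 of 15 names. Of their 18 probe sets 11 (61.1%, beside 60.4% of all measured) were lower and 7 higher, with a median of -0.06. At 1.5-fold 0 passed, beside 2.32% lower and 0.703% higher among all measured probe sets. Pop1, a subunit of RNase P, was the farthest from 0 and was named after its values were seen. It read 7.95 on the knock-out array and 8.52 on the wildtype array, a difference of -0.57.

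The direction of small differences depends on how the arrays are scaled. Of all measured probe sets past 1.5-fold, 76.8% were lower on the knock-out array with the values as deposited, against 58.8% with the median difference set to 0, 55.6% after quantile normalization and 62.1% after loess centring. At 2-fold the shares were 81.5%, 72.7%, 72.6% and 72.0% in the same order.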

How the data were processed

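The series held 2 Affymetrix Mouse430_2 arrays, with 1 value for each probe set. The deposited values were taken as log2 signals from their range of 2.09 to 14.71. Per the labels' protocols, 100 ng of total RNA, extracted with Trizol, was labelled with biotin by a 3′ IVT kit. How the authors summarized and normalized the signals is not stated in the sources used here. Groups came from the genotype label.

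Genes were named from the platform annotation, in which 34945 non-control probe sets had 1 symbol, 932 several and 9160 none. Probe sets with several symbols were left out. RefSeq tables of GRCm38.p6 gave sequences, chromosomes and gene order, and no other coordinates were used. Differences were computed in Python 3.11.15 with pandas 2.3.3, and loess with statsmodels 0.14.6. With 1 array per genotype no test was made. The calculation was tested on simulated data with changes added to bright probe sets only, so bounds at the floor were not tested. Genes named are all 10 members, other noncoding RNAs past 1.5-fold at the brightest probe set, Xist, the 5 with the highest wildtype signal, and the 3 hosts and decay factors with the largest difference. Meg3, Rian and Mirg as a group, and Pop1, were added after seeing values. The members and lists were chosen with earlier results of these data known. Alternatives were other scalings, floors, added constants, probe set types and fold marks.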

Additional observations from a re-analysis of the deposited data

How the results depend on the processing

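No paired analysis was possible because a single array stands for each genotype. Of 85 recomputed principal values 72 moved by less than the spread of 0.199 between probe sets of a gene, or by less than 1.5 times for a count. Some of these 72 could not move. Both signals of the brighter Neat1 probe set lay above every floor, so its difference stayed at -1.08 with each. Signs turned for 2 medians near 0. The Malat1 difference of -4.36 became -5.27 with no floor, -4.98 with the floor at the 40th percentile and -2.18 at the 75th. It became -3.93 and -3.15 with 16 and 64 added to linear values, and -2.66 as the mean over measured probe sets. The floor or the constant sets the size of this loss by construction. The Neat1 difference of -1.08 became -0.44 as the mean of its probe sets. The count of probe sets at least 2-fold lower, 7, became 3 with the floor at the 75th percentile, 4 with 64 added, 4 without the _x_at and _s_at probe sets, and 4 at the 3-fold mark. The count at least 1.5-fold lower, 9, became 3 with the floor at the 75th percentile and 5 without those types. Malat1 supplied most of the 7 and of the 9. The snoRNA host median of -0.09 became 0.07 with the floor at the 75th percentile, and that of the protein-coding snoRNA hosts, -0.04, became 0.02 with the median difference set to 0. With 64 added, the Snhg1 probe set at -1.08 came to -0.65 and that at -0.73 to -0.49. Of 270 recomputed values for the other named probe sets 29 moved further than the spread and 10 turned sign, for 4 probe sets that were within 0.061 of 0.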

Other observations

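Noncoding RNAs transcribed antisense to imprinted genes were lower on the knock-out array at every measured probe set of the genes Kcnq1ot1 and Airn, which were picked out after their values were seen. Kcnq1ot1, the paternally expressed RNA that silences its cluster, differed by -0.44 to -0.38 over 3 probe sets. Its brightest read 7.53 on the knock-out array and 7.91 on the wildtype array. Airn, which silences the Igf2r cluster, differed by -0.45 and -0.44 over 2 probe sets, and the brighter read 7.21 on the knock-out array and 7.66 on the wildtype array. Neither gene passed 1.5-fold, and with 1 array per genotype no test was made. Of all measured probe sets 60.4% were lower on the knock-out array.

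A further probe set was paired with both Gas5 and the snoRNA Snord47 and was therefore kept out of the Gas5 values. It read 8.97 on the knock-out array and 9.29 on the wildtype array, a difference of -0.31, while the 3 brightest Gas5 probe sets were higher on the knock-out array.

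X-linked noncoding RNAs other than Xist, namely Jpx, Ftx and Firre, differed by -0.42 to 0.32 over 4 probe sets, with 2 lower and 2 higher on the knock-out array.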
